A study of Homo sapiens with 15 samples.

Results

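This account covers 9 genes of bile acid and organic anion transport in the lung adenocarcinoma line A549, out of 26475 genes in the deposited table. They are both genes of the organic solute transporter (SLC51A and SLC51B), 6 genes of the organic anion transporting polypeptide (OATP) family (SLCO1B3, SLCO2A1, SLCO2B1, SLCO3A1, SLCO4A1 and SLCO4C1) and NR1H4, which encodes the bile acid receptor FXR. The genes were chosen by name with earlier results of these data known. The measured value among those results that concerned a member was the log2 change of SLC51B between IL4 and untreated cells, so in any comparison with the untreated or the IL4-alone libraries SLC51B is described with no test and is left out of the counts of genes that passed. Of the 9 genes, 7 had enough counts to be tested and 2, SLC51A and SLCO2A1, had too few.

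RNA was sequenced from 5 groups of 3 libraries. One group was left untreated, and the other 4 all received the cytokine IL4 at 10 ng/ml, so no group shows an siRNA or the compound in cells without IL4. Those 4 groups were IL4 alone, IL4 with Compound A, IL4 with a non-targeting control siRNA pool, and IL4 with an siRNA pool against ALOX15 (1 uM), the gene of arachidonate 15-lipoxygenase, which makes lipid mediators from polyunsaturated fatty acids. Exposure lasted 48 h. What Compound A is, its dose, its vehicle and the dose of the control siRNA are not given in the sources used here. A549 is an established line of epithelial origin, so the groups describe 1 line in culture. Nothing in the labels says that each replicate was its own culture, and the p-values then reflect library-to-library spread alone, which may be technical.

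Bile acids are made from cholesterol in the liver, and cells take them up, sense them and export them through separate proteins. SLC51A and SLC51B encode the alpha and beta subunits of a basolateral exporter of bile acids and steroid conjugates, and both subunits are needed for the transporter to reach the membrane and work. OATPs are sodium-independent uptake carriers for bile acids, thyroid hormones, prostaglandins, steroid sulphates and many drugs. FXR is a nuclear receptor that binds bile acids and, paired with RXR, acts on inverted repeats of the sequence AGGTCA separated by 1 base; SLC51A and SLC51B are among its known target genes in liver and intestine.

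The promoters of SLC51B and SLCO1B3 are shown because, among the 7 genes with a promoter window, they held the only matches found to that FXR element. The windows were taken from RefSeq (GRCh38.p14), and SLCO2A1 and SLCO4A1 had none. The search covered 250 bases before each RefSeq start on both strands for AGGTCA, any 1 base and TGACCT, with up to 2 mismatches. The stretches are on the plus strand, 5′ to 3′, end before the first exon of the annotation, and carry the match in capitals; SLC51B spans chr15:65045137-65045369 and SLCO1B3 spans chr12:20810455-20810701.
SLC51B: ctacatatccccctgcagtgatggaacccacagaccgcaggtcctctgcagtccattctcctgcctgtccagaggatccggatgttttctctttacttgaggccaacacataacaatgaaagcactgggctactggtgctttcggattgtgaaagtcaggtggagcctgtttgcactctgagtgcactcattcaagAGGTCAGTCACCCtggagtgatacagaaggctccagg
SLCO1B3: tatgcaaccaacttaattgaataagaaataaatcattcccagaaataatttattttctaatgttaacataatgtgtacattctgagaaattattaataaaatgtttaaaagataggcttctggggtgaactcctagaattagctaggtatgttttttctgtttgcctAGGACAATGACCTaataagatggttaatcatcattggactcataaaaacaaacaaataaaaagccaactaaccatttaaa
In the SLCO1B3 stretch the match lay at position -83 from the RefSeq start and differed from the element by T4A, counted from 1 at the 5′ end of the element. The SLC51B match lay at position -54 and differed by G9C and T13C. Among 34796 windows of the same length, 0.0460% held a match with at most 1 mismatch, 0.948% held one with at most 2, and none held an exact one. The STAT6 motif, TTC and GAA separated by any 4 bases, STAT6 being the main transcription factor of IL4 signalling, was in no window of the 7 genes and in 5.36% of all windows. A match is a description of letters and was not tested as a binding site.

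Total counts per library ran from 6407936 to 11031246. ALOX15, the target of the siRNA, was at 0 to 0.299 CPM (counts per 1e+06, scaled by TMM) in untreated cells, 4.72 to 6.00 with IL4, 3.25 to 3.91 with control siRNA and 0.136 to 0.319 with ALOX15 siRNA, and fell by 3.85 (SE 0.43) on the log2 scale between the siRNA groups (edgeR adjusted p = 8.47e-05). With Compound A it was at 1.81 to 2.59 CPM. With all libraries, ALOX15 changed with Compound A by -1.23 (SE 0.25) against IL4 (edgeR adjusted p = 0.00328). Against control siRNA the change was -0.68 (SE 0.27), which did not pass (edgeR adjusted p = 0.163). Some ALOX15 counts were not whole, as where reads are shared with other genes. IL4 replicate 1 stood apart from its mates: the chi-square per degree of freedom over genes was 10.0 and 13.5 against the other IL4 libraries and 1.60 to 5.37 for all pairs that did not include it. Results that use the IL4 libraries are therefore given with and without it where that changes them. The 5 epithelial markers (KRT8, KRT18, KRT19, EPCAM and CDH1) were all expressed, but of 8 alveolar type II markers only ABCA3 and LAMP3 passed the filter on low counts, SFTPB was at 0 and SFTPC at no more than 2 counts in any library. The labels call the line alveolar type II-like.

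Levels were compared between genes as CPM per kilobase of exonic sequence, averaged over the 15 libraries. The length was that of all annotated exons of a gene merged, from 0.94 kb for SLC51B to 10.351 kb for SLCO2B1, and not that of the expressed transcript. SLCO1B3 was highest at 24.7 ± 3.60 (SD, n = 15), followed by SLC51B at 5.64 ± 3.47, NR1H4 at 4.36 ± 1.07, SLCO3A1 at 2.88 ± 0.449 and SLCO2B1 at 1.90 ± 0.599. SLCO4A1 at 0.659 ± 0.271 and SLCO4C1 at 0.216 ± 0.0791 were low. SLCO2A1 was at 0.00798, and SLC51A was at 0. In untreated cells SLC51B reached 11.5 ± 0.654 CPM per kilobase, between SLCO1B3 at 21.6 ± 2.11 and NR1H4 at 3.07 ± 0.269. As CPM without the length, untreated means were 21.7 for SLCO3A1, 14.7 for SLCO2B1, 11.2 for NR1H4 and 10.8 for SLC51B. The order of these genes thus depends on the length used. Over all libraries SLC51B and NR1H4 differed by less than the SD of SLC51B, which spans the groups.

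**Figure D1:**
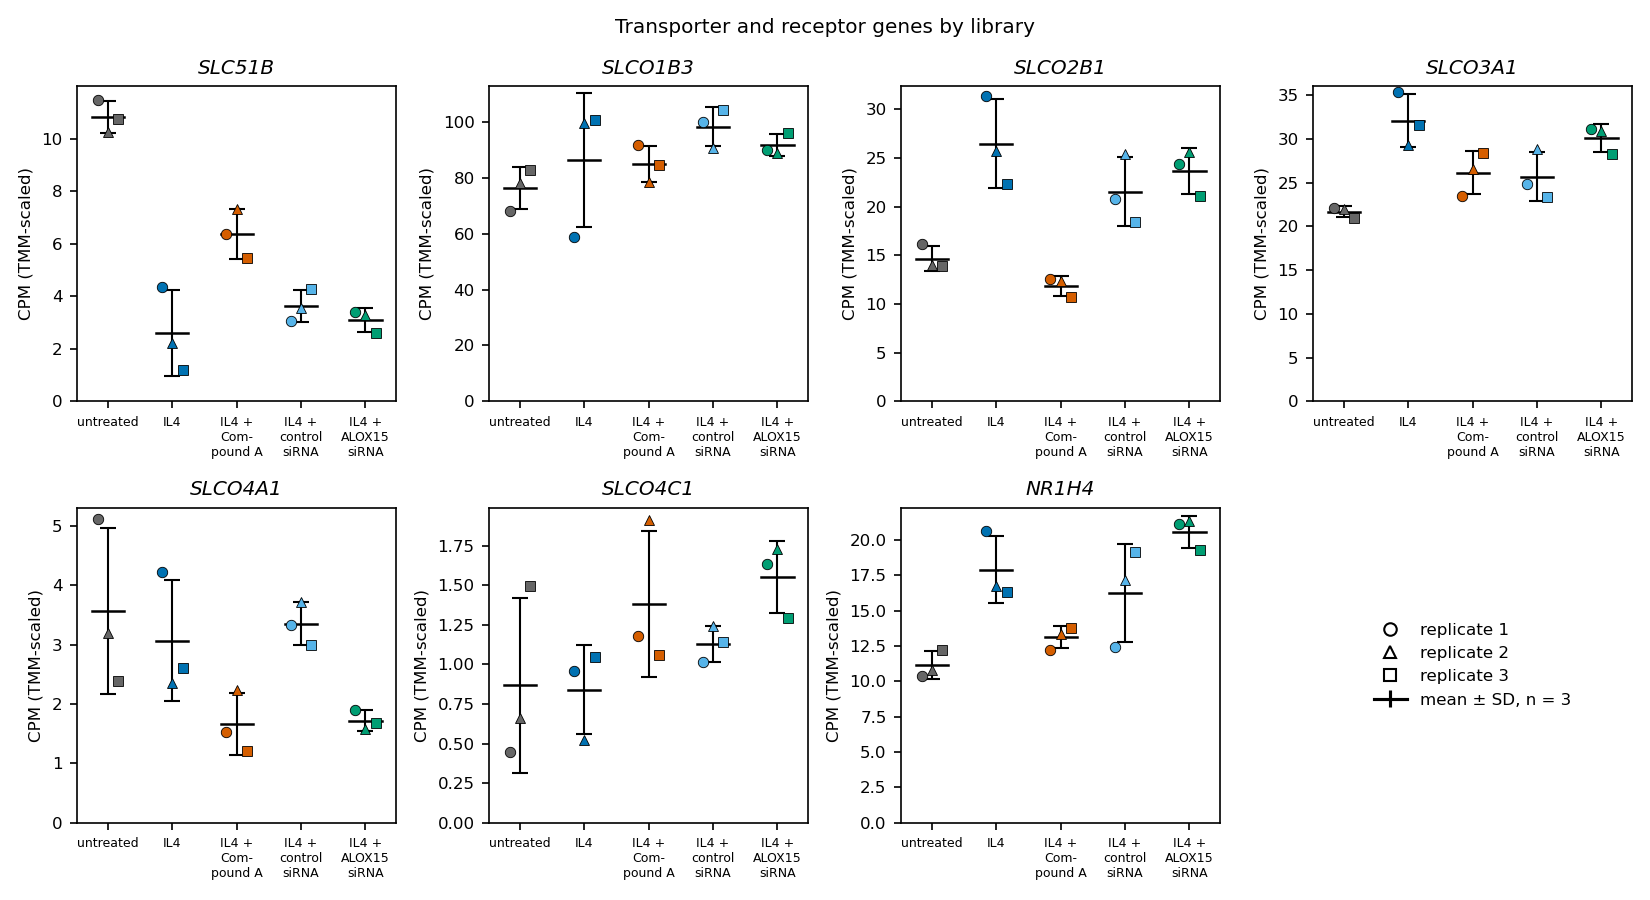
Level of the 7 tested genes in each library, as CPM scaled by TMM (y axis, from 0) in the 5 groups (x axis), with replicate numbers as symbols and bars for the mean and SD of 3 libraries. SLC51B is highest in untreated cells and SLCO2B1 lowest with Compound A.

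SLC51B, the beta subunit of the exporter, lies on chromosome 15 at 65045370 to 65053396 (plus strand, GRCh38) and is protein-coding. Untreated libraries held it at 11.5, 10.2 and 10.8 CPM. IL4 libraries held it at 4.37, 2.23 and 1.18 CPM, Compound A libraries at 6.35, 7.33 and 5.44, control siRNA libraries at 3.04, 3.56 and 4.28, and ALOX15 siRNA libraries at 3.40, 3.30 and 2.59. Every library with IL4 was therefore below every untreated library, and the Compound A libraries lay between the untreated ones and all 9 other libraries with IL4, with no overlap on either side. In bulk RNA, fewer cells that express a gene and less RNA per cell cannot be told apart.

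As a description, SLC51B was 4.201-fold lower with IL4 than untreated (log2 -2.07, SE 0.26) and 2.98-fold lower with control siRNA and IL4 (log2 -1.57, SE 0.25). Without IL4 replicate 1 the first of these values was -2.66, and without IL4 replicate 3 it was -1.72. With Compound A the level was 1.68-fold below untreated (log2 -0.75, SE 0.22). Set against IL4 alone, the Compound A level of SLC51B was 2.49-fold higher (log2 1.32, SE 0.28). This too is a description, because the low SLC51B level of those IL4 libraries was known when the genes were chosen. The difference was 1.91 without IL4 replicate 1 and 0.97 without IL4 replicate 3.

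The control siRNA libraries gave the test for Compound A that uses neither the untreated nor the IL4-alone libraries as an arm. SLC51B was 1.77-fold higher with Compound A there (log2 0.82, SE 0.26), which did not pass (edgeR adjusted p = 0.0768, 0.00713 to 0.280 over 23 alternatives). It passed in the fit of those groups alone (0.00818), without IL4 replicate 1 (0.00713) and without IL4 replicate 3 (0.0253). The arms also differ by the siRNA, so the compound and the siRNA treatment cannot be told apart in it. ALOX15 siRNA left SLC51B at 3.10 ± 0.445 CPM (SD, n = 3) against 3.63 ± 0.623 with control siRNA (log2 -0.24, SE 0.30, edgeR adjusted p = 0.900).

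SLC51A, the alpha subunit on chromosome 3 at 196211487 to 196243178 (plus strand), had 0 counts in all 15 libraries. Over 115983085 counts in all, this allows a level of up to 0.0259 CPM at 3 counts, a limit that covers counting error only. RNA of the beta subunit was thus present in every library at 9 to 128 counts, and RNA of its partner was not detectable at this depth. The SLC51B gene shares 60 exonic bases with RASL12 on the opposite strand, which had 7 counts in all libraries together. SLC51A shares 389 exonic bases with PCYT1A on the opposite strand. The strand setting of the counting is not given in the sources used here.

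Among the uptake carriers, SLCO2B1 (chromosome 11 at 75100563 to 75206549, plus strand) encodes OATP2B1, a carrier of steroid sulphates and drugs such as statins. It was at 16.1, 13.996 and 13.9 CPM in untreated libraries, 31.4, 25.7 and 22.3 with IL4, 12.6, 12.3 and 10.7 with Compound A, 20.8, 25.4 and 18.4 with control siRNA, and 24.4, 25.6 and 21.1 with ALOX15 siRNA. All 9 libraries with IL4 but without Compound A were above all untreated libraries, and all 3 Compound A libraries were below them. SLCO2B1 rose 1.79-fold with IL4 (log2 0.84, SE 0.14, edgeR adjusted p = 0.000111). It also rose in the control siRNA group against untreated (log2 0.54, SE 0.14, edgeR adjusted p = 0.00877), a call lost without control siRNA replicate 2 (0.0768; 0.000861 to 0.0768 over 23 alternatives).

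With Compound A, SLCO2B1 fell 2.21-fold against IL4 alone (log2 -1.15, SE 0.14, edgeR adjusted p = 5.15e-05) and 1.80-fold against control siRNA (log2 -0.85, SE 0.15, edgeR adjusted p = 0.00172). Without IL4 replicate 1 the changes were 0.70 with IL4 and -1.005 with Compound A against IL4. These 3 comparisons, IL4 against untreated and Compound A against IL4 or control siRNA, passed in each of the 23 alternatives. Against untreated cells the Compound A group differed by -0.31 (SE 0.15), which did not pass (edgeR adjusted p = 0.141). ALOX15 siRNA gave a difference of 0.14 (SE 0.14, edgeR adjusted p = 0.854). COL1A1, 1 of 4 fibroblast markers, was higher with IL4 than untreated and lower with Compound A than with IL4, as SLCO2B1 was. With Compound A the COL1A1 mean stayed above untreated, while that of SLCO2B1 was below it. COL1A1 was at 6.59 ± 1.19 CPM untreated (SD, n = 3), 18.1 ± 3.86 with IL4, 8.33 ± 1.19 with Compound A, 14.2 ± 0.881 with control siRNA and 15.6 ± 1.48 with ALOX15 siRNA. LUM, the other one tested, was at 1.28 ± 0.341 CPM untreated, 1.37 ± 0.519 with IL4, 0.336 ± 0.110 with Compound A, 0.832 ± 0.146 with control siRNA and 1.45 ± 0.434 with ALOX15 siRNA. LUM did not pass for IL4 against untreated (log2 0.11, SE 0.36, edgeR adjusted p = 0.863). COL1A2 was at 0 and DCN at no more than 2 counts in any library. The sum of the 4, 6.94 to 8.60 CPM untreated, 16.8 to 23.6 with IL4, 7.64 to 9.88 with Compound A, 13.9 to 15.8 with control siRNA and 16.02 to 18.9 with ALOX15 siRNA, is thus mostly COL1A1.

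SLCO3A1 (chromosome 15 at 91853695 to 92172435, plus strand) encodes OATP3A1, a widely expressed carrier of prostaglandins and thyroid hormone. Untreated libraries were at 22.1, 22.0 and 20.9 CPM and IL4 libraries at 35.3, 29.4 and 31.6. The Compound A libraries were at 23.5, 26.5 and 28.4, control siRNA at 24.9, 28.8 and 23.4, and ALOX15 siRNA at 31.2, 30.9 and 28.3. The lowest library with IL4 of any kind was above the highest untreated library. SLCO3A1 rose 1.47-fold with IL4 (log2 0.56, SE 0.10, edgeR adjusted p = 0.000350), also in each of the 23 alternatives. The control siRNA group differed from untreated by 0.24 (SE 0.11, edgeR adjusted p = 0.1253). Compound A against IL4 gave -0.30 (SE 0.10) at the edge of the threshold (edgeR adjusted p = 0.0504, 0.0346 to 0.190 over 23 alternatives). It passed under the RLE (0.0487) and upper-quartile (0.0393) scalings, in the block fit (0.0430) and without any 1 of IL4 replicate 2, control siRNA replicate 2 and control siRNA replicate 3. Against control siRNA the Compound A difference was 0.02 (SE 0.10, edgeR adjusted p = 0.926). An antisense gene, AC116903.1, shares 538 exonic bases with SLCO3A1 and is not in the table.

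SLCO1B3 (chromosome 12 at 20810702 to 20916911, plus strand) encodes OATP1B3, in normal tissue a bile acid and bilirubin conjugate carrier of hepatocytes, and known to be expressed by several carcinomas. It was the most abundant of the 9 genes, at 68.2, 78.2 and 82.8 CPM untreated, 58.8, 99.9 and 101 with IL4, 91.8, 78.7 and 84.6 with Compound A, 100.01, 90.6 and 104 with control siRNA, and 90.1, 89.1 and 96.2 with ALOX15 siRNA. IL4 replicate 1 was the lowest of the 15 libraries, while its mates were above every untreated library. With it, IL4 against untreated gave 0.19 (SE 0.15, edgeR adjusted p = 0.414) and control siRNA against untreated 0.37 (SE 0.15, edgeR adjusted p = 0.102). Without it, SLCO1B3 passed in both, at 0.40 (edgeR adjusted p = 0.000128, 0.000128 to 0.818 over 23 alternatives) and 0.37 (7.06e-05; 7.06e-05 to 0.255). It also passed without it for Compound A against IL4, at -0.24 (0.0393; 0.0393 to 0.990), where all libraries gave -0.03 (SE 0.15, edgeR adjusted p = 0.926), and for Compound A against control siRNA, at -0.21 (0.0385; 0.0290 to 0.719), where they gave -0.21 (SE 0.15, edgeR adjusted p = 0.459). Both comparisons with control siRNA also passed in the fits of their own groups. The hepatocyte markers did not come with SLCO1B3 as a whole: CYP7A1 was at 0, and 5 of the 10 markers passed the filter, 1 of them the related carrier gene SLCO1B1. SLCO1B3 shares 1930 exonic bases with a readthrough gene on the same strand, AC011604.2, that is not in the table, and reads of the similar genes SLCO1B1 and SLCO1B7 could be split by the counting. All SLCO1B3 counts were whole, as were all SLCO1B1 counts, and a split of reads was not tested.

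SLCO4A1 (chromosome 20 at 62642445 to 62685785, plus strand) encodes OATP4A1, a carrier of thyroid hormone and steroid conjugates. It had 8 to 57 counts per library. Levels were 5.11, 3.20 and 2.39 CPM untreated, 4.23, 2.36 and 2.61 with IL4, 1.53, 2.23 and 1.21 with Compound A, 3.33, 3.72 and 2.997 with control siRNA, and 1.91, 1.57 and 1.68 with ALOX15 siRNA. The Compound A and ALOX15 siRNA libraries were all below all libraries of the other 3 groups. IL4 alone differed from untreated by -0.27 (SE 0.28, edgeR adjusted p = 0.530). Compound A gave -0.84 (SE 0.33) against IL4 and -0.97 (SE 0.33) against control siRNA, and ALOX15 siRNA gave -0.95 (SE 0.33) against control siRNA. None of these passed (edgeR adjusted p = 0.0856, 0.0931 and 0.306). The second passed in the fit of its groups alone (0.0258), with a replicate block (0.0485) and without IL4 replicate 1 (0.0331), over a range of 0.0258 to 0.272 in 23 alternatives. The SLCO4A1 values with Compound A and with ALOX15 siRNA were both set against the control siRNA libraries, so they share those. Compound A against untreated, added with the data in view, passed (log2 -1.11, SE 0.31, edgeR adjusted p = 0.0100), but not without untreated replicate 1 (0.135) or Compound A replicate 3 (0.0554; 0.00266 to 0.135 over 23 alternatives). SLCO4A1-AS1, which shares 346 exonic bases on the opposite strand, had 0 counts.

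SLCO4C1 (chromosome 5 at 102233986 to 102296549, minus strand) encodes OATP4C1, known for digoxin and thyroid hormone transport in the kidney. Its 4 to 18 counts per library made it the least precise of the tested genes. Group means were 0.868 ± 0.553 CPM untreated (SD, n = 3), 0.841 ± 0.278 with IL4, 1.38 ± 0.462 with Compound A, 1.13 ± 0.114 with control siRNA and 1.55 ± 0.229 with ALOX15 siRNA. Every neighbouring pair of groups overlapped. The widest difference from IL4 alone among the tests was 0.74 (SE 0.42) with Compound A (edgeR adjusted p = 0.234), and no comparison passed with all libraries. Compound A against untreated, at 0.82 (SE 0.41, edgeR adjusted p = 0.149), passed without untreated replicate 3 (0.0279; 0.0279 to 0.513 over 23 alternatives).

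SLCO2A1 (chromosome 3 at 133928145 to 134052184, minus strand) encodes the prostaglandin transporter OATP2A1. It had 9 counts in all, none in 9 libraries and at most 3 in any. The untreated and control siRNA groups had 0 counts, which allows up to 0.112 and 0.147 CPM over each group. The counts were 2 with IL4, 3 with Compound A and 4 with ALOX15 siRNA. No difference was detectable at this depth.

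NR1H4 (chromosome 12 at 100473708 to 100564413, plus strand) encodes the receptor FXR. It was at 10.4, 10.8 and 12.3 CPM untreated, 20.6, 16.8 and 16.3 with IL4, 12.2, 13.4 and 13.7 with Compound A, 12.4, 17.2 and 19.1 with control siRNA, and 21.1, 21.4 and 19.3 with ALOX15 siRNA. All IL4 and ALOX15 siRNA libraries were above all untreated and Compound A libraries, and control siRNA replicate 1 fell among the latter. NR1H4 rose 1.62-fold with IL4 (log2 0.69, SE 0.14, edgeR adjusted p = 0.00116), also in each of the 23 alternatives. In the control siRNA group it rose 1.47-fold over untreated (log2 0.55, SE 0.15, edgeR adjusted p = 0.00928), a call lost without control siRNA replicate 3 (0.0710; 0.000939 to 0.0710 over 23 alternatives).

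With Compound A, NR1H4 fell by 0.45 on the log2 scale against IL4 (SE 0.14, edgeR adjusted p = 0.0373). That call was among the least stable: it was lost under DESeq2 (0.0506), in the fit of the 2 groups alone (0.0893), without IL4 replicate 1 (0.148), and without Compound A replicate 1, 2 or 3 (0.111, 0.102 and 0.0752), over a range of 0.0209 to 0.148 in 23 alternatives. Against control siRNA the difference was -0.31 (SE 0.14, edgeR adjusted p = 0.232). ALOX15 siRNA gave 0.34 (SE 0.14, edgeR adjusted p = 0.422).

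Relative to untreated cells, the receptor and its known target SLC51B stood on opposite sides in every library with IL4. NR1H4 was above the untreated mean in all 12 of these libraries and SLC51B below it in all 12. As fitted ratios to untreated cells, NR1H4 was at 1.18 and SLC51B at 0.594 with Compound A, and at 1.62 and 0.238 with IL4 alone. These ratios share the untreated libraries, and the low SLC51B level with IL4 was known when the genes were chosen. SLCO1B3 holds the other match to the FXR element, in a window before its first annotated exon. Counts per gene do not show which start was used in these cells. The SLCO1B3 group means were 85.0 to 98.4 CPM with IL4 against 76.4 untreated, the same side as NR1H4. SLCO1B3 in IL4 replicate 1, at 58.8 CPM, was below all untreated libraries, and the gene passed in no comparison with untreated with all libraries. No bile acid was measured, and whether the NR1H4 level is linked to that of SLC51B or SLCO1B3 was not tested.

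**Figure D2:**
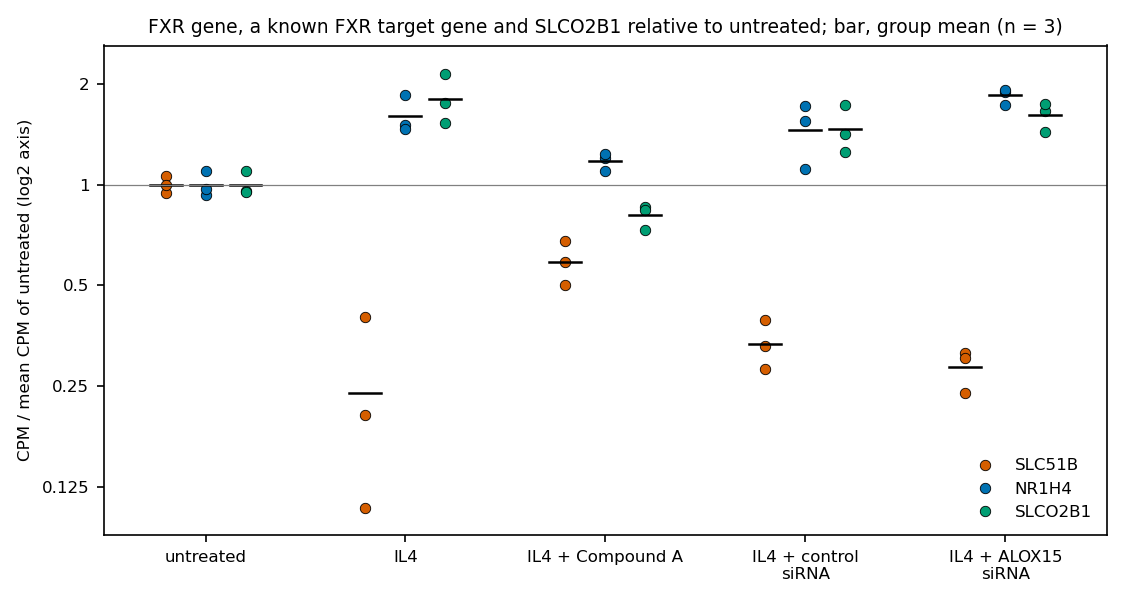
CPM of SLC51B, NR1H4 and SLCO2B1 in each library divided by the mean CPM of the untreated group (y axis, log2 scale), by group (x axis), with a bar at each group mean of 3 libraries. SLC51B lies below 1 and NR1H4 above 1 in all libraries with IL4, and SLCO2B1 lies above 1 in those libraries except with Compound A.

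SLC51B aside, 3 of the 6 other tested genes passed for IL4 against untreated, SLCO2B1, SLCO3A1 and NR1H4, beside 22.9% of all 12795 genes tested. All 3 were higher (11.2% of all genes were higher and 11.6% lower). For control siRNA against untreated 2 of the 6 passed, SLCO2B1 and NR1H4, beside 19.3% of all genes, and both were higher (9.93%, beside 9.36% lower). The count was 1 without control siRNA replicate 2 or without control siRNA replicate 3. In the contrast of Compound A and IL4 2 of the 6 passed, beside 14.4%, SLCO2B1 and NR1H4, and both were lower (8.07%, beside 6.35% higher). That count was 1 without any 1 of the Compound A libraries. In that of Compound A and control siRNA SLCO2B1 alone of all 7 passed and was lower, beside 5.28% (1.86% higher and 3.42% lower). The count there was 4 without IL4 replicate 1 and 2 without IL4 replicate 3. For Compound A against untreated 1 of the 6 passed, SLCO4A1, which was lower (13.5% of all genes, beside 12.7% higher and 26.2% in all). This count was 0 without Compound A replicate 3 or untreated replicate 1, and 2 without any 1 of untreated replicate 3, IL4 replicates 1 and 2, and Compound A replicate 1.

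None of the 7 genes passed for ALOX15 siRNA against control siRNA, beside 0.696% of all genes tested (0.313% higher and 0.383% lower), which is 89 genes (1140 at an unadjusted p under 0.05). Among the 7, SLCO4A1, NR1H4 and SLCO3A1 had an unadjusted edgeR p under 0.05 (0.0101, 0.0237 and 0.0380). DESeq2 also called none of the 7. None of the 6 genes other than SLC51B passed for control siRNA against IL4 either, where edgeR called 0 genes of 12795 (0%), 628 were at an unadjusted p under 0.05, and DESeq2 called 2. Whether the Compound A and ALOX15 siRNA effects on a gene differ from each other was not tested.

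**Figure D3:**
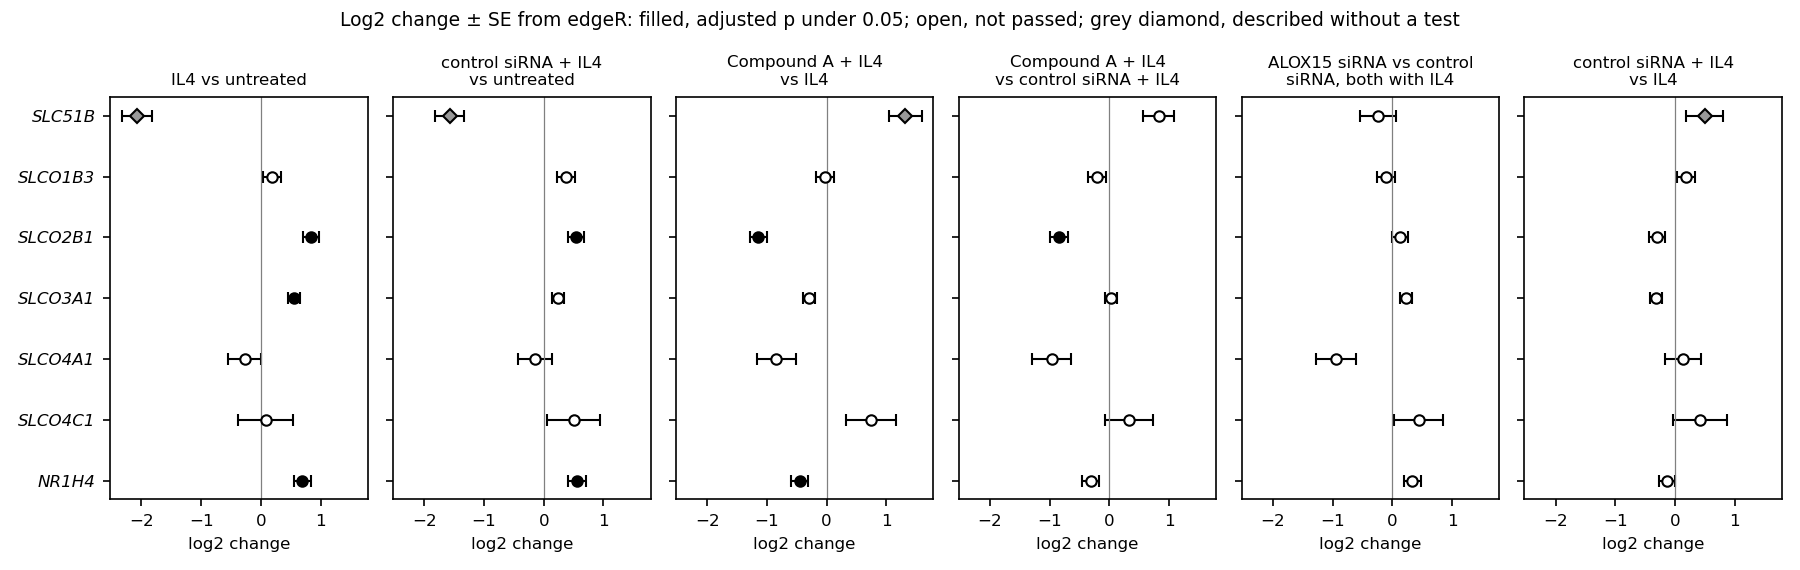
Log2 change with its SE (x axis) of each tested gene (rows) in 6 comparisons (panels), from edgeR, with filled points for an adjusted p under 0.05, open points for those that missed it and grey diamonds for SLC51B against untreated or IL4 alone, which is given without a test. SLCO2B1 is filled in 4 panels, and no gene is filled in the last 2.

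Other genes of the pathway were taken from 7 lists, of which 4 to 9 genes each were tested. Their counts stand beside the shares of all genes called: 11.2% higher and 11.6% lower for IL4 against untreated, 6.35% higher and 8.07% lower for Compound A against IL4, 1.86% and 3.42% for Compound A against control siRNA, and 0.313% and 0.383% for ALOX15 siRNA. Of 21 other bile acid and organic anion carriers, 8 had no count in any library and 5 were tested. With IL4, 3 of the 5 rose (11.2% of all genes) and none fell, with a median log2 change of 0.44 beside -0.02 over all genes. They included SLCO1B1, the hepatic carrier OATP1B1 (log2 0.69, SE 0.18, edgeR adjusted p = 0.00851), and SLC10A3, an orphan member of the bile acid carrier family (0.44, SE 0.13, 0.0168). With Compound A against IL4, 2 of the 5 fell (8.07% of all genes), among them SLC10A3 (log2 -0.54, SE 0.13, edgeR adjusted p = 0.00922), and the list median was -0.53 beside 0.0019. The uptake carriers NTCP and ASBT (SLC10A1 and SLC10A2) were not tested. In the fits of the 2 groups alone, 1 of the 5 passed in each comparison. SLC10A3 also missed the threshold for IL4 without untreated replicate 3 or IL4 replicate 1.

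Of 11 export pumps 8 were tested, and ABCB11, the bile salt export pump, was not among them. With IL4, ABCC3, an organic anion pump of the basolateral membrane, rose by 0.34 (SE 0.06, edgeR adjusted p = 0.000348), while ABCG2 (-0.56, SE 0.08, 1.12e-05) and ABCC4 (-0.40, SE 0.07, 0.000367), an exporter of prostaglandins and cyclic nucleotides, fell. These are 3 calls of 8, beside 22.9% of all genes, and the list median was -0.08. With Compound A against IL4 only ABCG2 passed (1 of 8, beside 14.4%), at 0.28 (SE 0.08, edgeR adjusted p = 0.0190, 0.0119 to 0.121 over 23 alternatives), not without IL4 replicate 1, Compound A replicate 1 or Compound A replicate 3 (0 of 8 each), and the count was 2 without untreated replicate 1. ABCG2, a pump of sulphate conjugates and many drugs, also fell with ALOX15 siRNA (log2 -0.57, SE 0.08, edgeR adjusted p = 0.000984), at 44.0, 41.3 and 42.9 CPM against 67.4, 60.6 and 61.8 with control siRNA. No other pump passed there (1 of 8, beside 0.696% of all genes).

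Among 14 bile acid receptors and receptor partners 7 were tested; NR0B2 and GPBAR1, the bile acid receptor of the cell surface, were not. VDR, the vitamin D receptor, which also binds lithocholic acid, rose with IL4 by 1.60 (SE 0.16, edgeR adjusted p = 2.77e-07). FGFR4, the receptor of FGF19, gave -0.39 (SE 0.12, 0.0284) and HNF4A, a hepatocyte and gut nuclear receptor, -0.27 (SE 0.09, 0.0464), which made 3 calls of 7 beside 22.9% of all genes. HNF4A lost its call in 18 of 23 alternatives and FGFR4 in 10. VDR alone was left without any 1 of untreated replicates 1 and 2, IL4 replicates 2 and 3, Compound A replicate 3, and ALOX15 siRNA replicates 2 and 3. With Compound A against IL4, 4 of 7 fell (8.07% of all genes) and none rose (6.35%), among them FGFR4 (-0.72, SE 0.13, edgeR adjusted p = 0.00182), VDR (-0.63, SE 0.15, 0.00823) and HNF4A (-0.60, SE 0.10, 0.000607). The list median was -0.60. In the fit of the 2 groups alone the count was 2, and VDR missed the threshold. RXRA, the partner of FXR, did not pass (log2 -0.17, adjusted p = 0.104, 0.0349 to 0.340 over 23 alternatives), though it did without IL4 replicate 3.

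Known FXR targets outside transport were mostly too low to test: of 15, 5 were tested, and FGF19, NR0B2 and FABP6 were not. The 5 include the 3 fibrinogen chain genes. With IL4, FGB fell by 0.29 (SE 0.06, edgeR adjusted p = 0.00138) and FGG rose by 0.27 (SE 0.07, 0.00636), 2 calls of 5 beside 22.9% of all genes. In the Compound A libraries against IL4, FGB dropped by 0.36 (SE 0.06, edgeR adjusted p = 0.00105) and was the only call (1 of 5, beside 14.4%), with 2 calls without any 1 of untreated replicate 1, IL4 replicate 3 and Compound A replicate 1. The list medians were 0.04 and -0.02. None passed with ALOX15 siRNA.

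Of 17 genes of bile acid synthesis and conjugation 9 were tested, CYP7A1, the rate-limiting enzyme, being at 0 in all libraries. ACOX2, a side-chain oxidase, fell with IL4 by 1.41 (SE 0.33, edgeR adjusted p = 0.00324), while HSD3B7 (0.46, SE 0.12, 0.0103) and SLC27A2 (0.26, SE 0.06, 0.00219), an acyl-CoA synthetase, rose, 3 calls of 9 beside 22.9% of all genes. HSD3B7 missed the threshold without IL4 replicate 1. Between Compound A and IL4 none of the 9 passed with all libraries (14.4% of all genes), 1 did without untreated replicate 1 or IL4 replicate 1, and 2 did without IL4 replicate 3. With ALOX15 siRNA, SLC27A2 fell by 0.56 (SE 0.06, edgeR adjusted p = 4.86e-05) as the 1 call of 9, beside 0.696% of all genes, and 2 genes of the list passed without IL4 replicate 1. The list medians were 0.02, 0.03 and -0.02.

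The prostaglandin list of 13 genes, chosen around SLCO2A1, had 9 tested. With IL4, 4 fell (11.6% of all genes) and 1 rose (11.2%). PTGS2, the inducible cyclooxygenase, fell by 1.13 (SE 0.08, edgeR adjusted p = 3.36e-09), PTGES3 by 0.37 (SE 0.10, 0.0153) and ABCC4, also in the pump list, by 0.40, while HPGD, the enzyme that inactivates prostaglandins, rose by 0.50 (SE 0.16, 0.0433). The count was 3 without untreated replicate 2 or 3, and HPGD missed the threshold without any 1 untreated library or without IL4 replicate 2 or 3. With ALOX15 siRNA, PTGS2 was the only call of the list (1 of 9, beside 0.696%) and fell by 0.53 (SE 0.08, edgeR adjusted p = 0.00332). Between Compound A and IL4, PTGS2 rose by 0.26 (SE 0.08, edgeR adjusted p = 0.0389, 0.00485 to 0.130 over 23 alternatives) and PTGR1, a prostaglandin reductase, fell by 0.19 (SE 0.05, 0.0128). That count of 2 of 9, beside 14.4% of all genes, was 0 without Compound A replicate 2 and 1 without any 1 of IL4 replicate 2, Compound A replicates 1 and 3, control siRNA replicate 1, and ALOX15 siRNA replicates 2 and 3. The list medians were -0.17, -0.04 and -0.0035 in the order of these comparisons.

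The last list holds adaptor and trafficking partners of OATPs, PDZ proteins that bind the tails of membrane carriers and basigin (BSG), a chaperone of membrane carriers; 4 of its names are in the table and all were tested. With Compound A against IL4 all 4 fell, beside 8.07% of all genes: SLC9A3R1, the adaptor NHERF1 (log2 -0.95, SE 0.10, edgeR adjusted p = 9.11e-06), PDZK1 (-0.90, SE 0.21, 0.00809), SLC9A3R2 (-0.55, SE 0.12, 0.00587) and BSG (-0.33, SE 0.06, 0.00238). The list median was -0.73 beside 0.0019 for all genes. SLC9A3R1 was at 64.8, 63.3 and 62.8 CPM with Compound A, 148, 115 and 104 with IL4 and 134, 115 and 112 untreated. The Compound A libraries were below all of these others, while the IL4 and untreated libraries overlapped. In the fit of the 2 groups alone SLC9A3R1 was the one left, and PDZK1 also missed the threshold without Compound A replicate 2. Against control siRNA SLC9A3R1 fell by 0.74 (SE 0.10, edgeR adjusted p = 0.000222) and PDZK1 by 0.78 (SE 0.22, 0.0401), 2 of 4 beside 3.42% of all genes. That count was 1 without untreated replicate 2 or 3 or any 1 Compound A library. The same held without any 1 control siRNA library or ALOX15 siRNA replicate 2 or 3. It was 4 in the fit of those groups alone, with a replicate block and without IL4 replicate 1. With IL4, SLC9A3R2 rose by 0.50 (SE 0.12, edgeR adjusted p = 0.00501) as the 1 call of 4, beside 22.9% of all genes, with a list median of 0.33. The count was 2 or 3 without IL4 replicate 2 or 3 or any 1 Compound A library. So it was without control siRNA replicate 1 or 3, or ALOX15 siRNA replicate 2 or 3. In the fit of the 2 groups alone the count was 0, and SLC9A3R2 missed the threshold (edgeR adjusted p = 0.0568). None passed with ALOX15 siRNA.

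**Figure D4:**
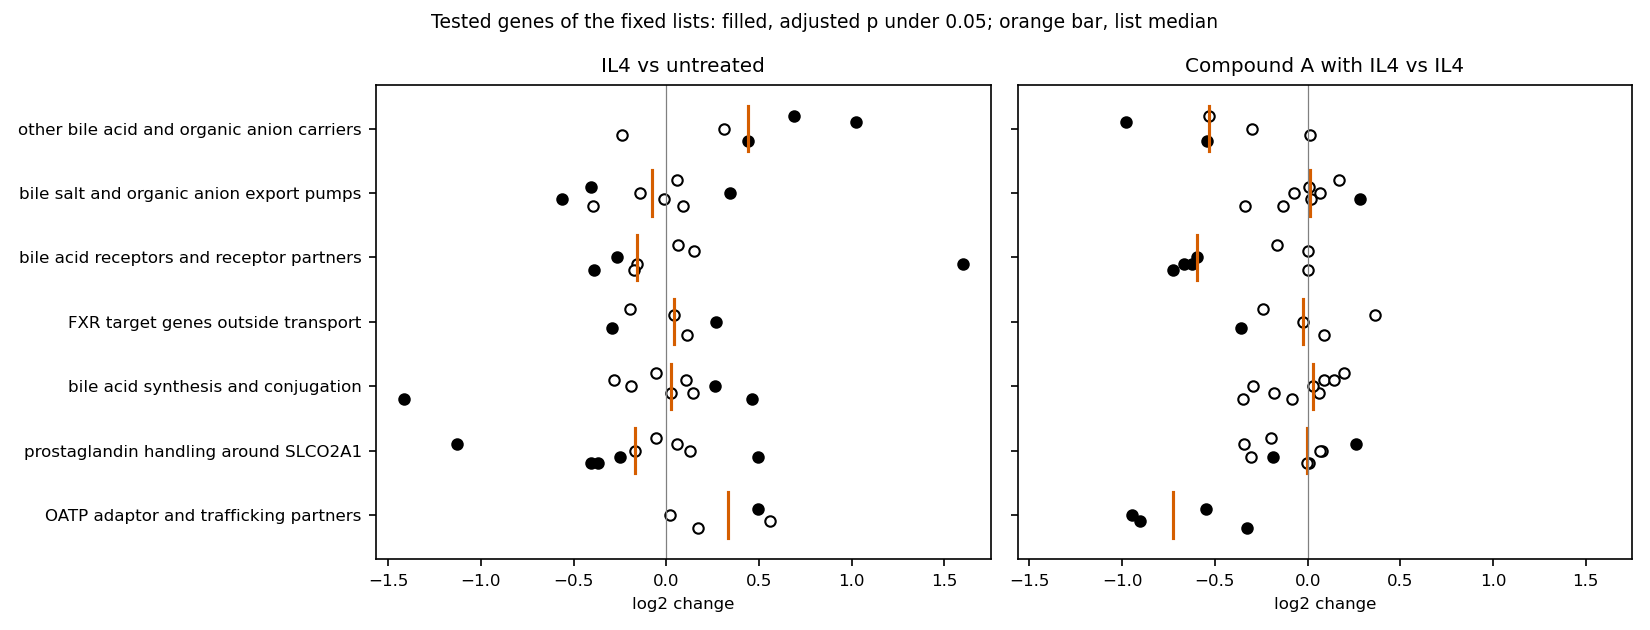
Log2 change (x axis) of each tested gene of the 7 pathway lists (rows) with IL4 against untreated and with Compound A against IL4 (panels), filled where the adjusted p was under 0.05, with an orange bar at the list median. Medians with Compound A are lowest for the OATP partners (-0.73), the receptors (-0.60) and the other carriers (-0.53).

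Beside these results stand the marker lists of other cell types. The summed level of 5 immune markers was 11.02 to 14.3 CPM untreated, 16.3 to 21.6 with IL4, 7.43 to 12.1 with Compound A, 11.99 to 15.7 with control siRNA and 14.3 to 16.5 with ALOX15 siRNA, with CD68 the 1 marker tested and most of that sum, and PTPRC and CD3E among those at 0. The 10 hepatocyte markers, which include SLCO1B1, summed to 19.5 to 26.6 CPM untreated, 25.2 to 30.1 with IL4, 17.9 to 19.8 with Compound A, 25.8 to 30.5 with control siRNA and 29.8 to 33.9 with ALOX15 siRNA. These markers did not move together: with IL4, ALB (log2 -2.20, SE 0.52, edgeR adjusted p = 0.00398), TF (-1.52, SE 0.25, 0.000170) and SERPINA1 (-0.97, SE 0.22, 0.00323) fell, while SLCO1B1 rose. The 3 endothelial markers summed to at most 0.819 CPM. The part of these marker levels, and of the fibroblast markers, in the results was not tested.

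The genes whose pattern over the 15 libraries was most like that of SLC51B, by Pearson correlation of log2 CPM among 12706 genes, were TACC2 (r = 0.918), SASH1 (0.904), RPRD2 (0.902), IER3 (0.887) and PHF21A (0.882). For SLCO4A1 they were ZBTB7B (0.894), MEX3D (0.877), SLC1A5 (0.873), SAFB2 (0.870) and PPAP2C (0.870). These values describe libraries that share their groups and scaling, and carry no test.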

How the data were processed

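Expected counts, the estimated reads per gene that RSEM returns, were deposited by the authors as 1 unscaled table. They used Bowtie2 2.1.0, RSEM 1.2.15 and the hg38 genome, per the submitters' processing notes; the annotation, filters and strand setting are not given in the sources used here. Columns were matched to samples by name, and groups were taken from the labels.

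Counts were rounded, filtered with filterByExpr (12795 genes kept) and scaled by TMM, and all 15 libraries were fitted together with edgeR 4.0.16 (robust quasi-likelihood, R 4.3.3), with Benjamini-Hochberg adjustment over all genes tested and a threshold of 0.05. The SE is the size of the log2 change divided by the square root of F. Totals ran from 6407936 to 11031246, median 7442934, and the common biological coefficient of variation was 0.0731. Positions and exonic lengths came from GENCODE 29. All 9 genes are named whatever their values, and of each list the calls with the largest changes, at most 4 a comparison. The members and lists were chosen with earlier results of these data known. In comparisons with untreated or IL4-alone libraries SLC51B was left untested and out of the counts, a choice made with the data in view. The lists were 7 pathway lists and markers of epithelial, alveolar type II, hepatocyte, immune, endothelial and fibroblast cells. The pipeline was tested on simulated data. The 23 alternatives were 8 other settings (RLE or upper-quartile scaling, no or a stricter filter, unrounded counts, DESeq2 1.42.0, the compared groups alone, a replicate block) and each of 15 libraries left out. Compound A against untreated was added after the data were seen. Values of some genes of these lists are not reported here.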

Additional observations from a re-analysis of the deposited data

How the results depend on the processing

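The number of tested genes of the set that passed moved by over 1.5 times in 3 comparisons under other settings: Compound A against IL4 went from 2 to 1 in the fit of those 2 groups alone and by DESeq2, Compound A against untreated from 1 to 2 in the fit of those groups alone, and Compound A against control siRNA from 1 to 4 in the fit of those groups alone and to 2 with a replicate block. With each library left out in turn the count ran from 3 to 4 for IL4 against untreated, 1 to 3 for control siRNA against untreated, 1 to 3 for Compound A against IL4, 1 to 4 for Compound A against control siRNA and 0 to 2 for Compound A against untreated, and was 0 throughout for ALOX15 siRNA against control siRNA and for control siRNA against IL4. No called log2 change turned its sign. Over all genes, the fit of the compared groups alone called 1466 genes in place of 2925 for IL4 against untreated, 397 in place of 1846 for Compound A against IL4, 1768 in place of 675 for Compound A against control siRNA and 325 in place of 89 for ALOX15 siRNA, so a percentage of genes called depends on which groups share the fit. With single libraries left out these counts ran from 769 to 3016 for Compound A against IL4, 220 to 1638 for Compound A against control siRNA and 35 to 272 for ALOX15 siRNA. Genes higher with ALOX15 siRNA numbered 40, and 70 by DESeq2 or 65 with a replicate block. The correlation of deviations between same-numbered libraries averaged 0.0384 over 30 pairs and ran from -0.128 to 0.286, with 8 above 0.1. Between libraries of other numbers it averaged -0.019 over 60 pairs and ran from -0.237 to 0.232, with 7 above 0.1. On average same-numbered pairs were slightly more alike, with ranges that overlapped. Deviations were taken from group means, which ties these averages to each other. Whether replicate numbers pair the libraries was not tested. Among the counts of the set, the block moved only that for Compound A against control siRNA by over 1.5 times. It also moved the number of genes higher with ALOX15 siRNA, given above, and some list counts, such as OATP partners for IL4 against untreated (1 to 3). SLC51B with 9 counts, SLCO4A1 with 8 and SLCO4C1 with 4 in their lowest libraries are limited by depth, and SLC51A and SLCO2A1 could not be tested.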
